A study of Homo sapiens with 3 samples.

Results

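Calcineurin, the NFAT transcription factors and the RCAN regulators were described from 10 genes chosen by name: PPP3CA, PPP3CB and PPP3R1 (calcineurin subunits), NFATC1, NFATC2, NFATC3, NFATC4 and NFAT5 (transcription factors), and RCAN1 and RCAN3 (calcineurin regulators). All 10 were listed in each of the 3 tables, which share 22773 genes, and all 10 were among the 14185 genes kept at a mean of at least 1 CPM (read counts scaled to library size) over the libraries. The RNA came from DU145, an androgen-independent human prostate cancer line, collected 48 h after transfection of 75 nM siRNA with Lipofectamine RNAiMAX. There was 1 library for a negative control siRNA, 1 for TSPAN18 siRNA 1 (siTSPAN18#1) and 1 for TSPAN18 siRNA 2 (siTSPAN18#2), all in 1 cell line. The sources used here do not give the siRNA sequences. TSPAN18 is a tetraspanin membrane protein that the study's title places with STIM1, which senses calcium inside the endoplasmic reticulum, and with the ubiquitin ligase TRIM32.

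Calcineurin is a phosphatase made of a catalytic A subunit and a calcium-binding B subunit, and it is switched on by calcium-loaded calmodulin. When calcium enters through store-operated channels opened by STIM proteins, calcineurin strips phosphates from NFATC1, NFATC2, NFATC3 and NFATC4, which then move into the nucleus and bind GGAAA sequences, often beside AP-1 factors. NFAT5 shares the DNA-binding domain, lacks the calcineurin-binding region and responds to hypertonicity, whereas RCAN proteins bind and restrain calcineurin. Protein phosphorylation and nuclear movement are not visible in RNA levels, which are all that was measured.

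The 3 libraries held 30058731, 29913825 and 29766559 read pairs (control, siRNA 1, siRNA 2). No condition had a replicate, and the labels do not tell whether separate cultures were used, so intervals on single values cover counting error only. TSPAN18 stood at 16.9, 1.37 and 1.51 CPM, STIM1 at 100.2, 96.6 and 88.2 CPM, and TRIM32 at 42.9, 55.1 and 50.9 CPM in the same order. The epithelial markers KRT8 (464, 417 and 384 CPM) and KRT18 were well above the detection floor in every library, endothelial markers stayed at or below 0.91 CPM, and no haematopoietic marker was listed in all 3 tables. With siRNA 1, of the 5 epithelial markers 1 was 1.5-fold higher, the cadherin CDH1 (5.72, 12.2 and 5.54 CPM), and 1 was 1.5-fold lower, the adhesion molecule EPCAM (13.7, 8.59 and 11.1 CPM), with a list median of −0.32 (−0.21 with median-of-ratios scaling, 0.04 with the GC trend removed). EPCAM was under 1.5-fold with that scaling (−0.52) and with the GC trend removed (−0.55), while CDH1 stayed past it (1.08 with each). Of 4 fibroblast markers, COL1A1 was at 7.25, 3.18 and 5.98 CPM, lowest in the siRNA 1 library like EPCAM and like NFATC1 below, and the part of these markers in that result was not tested. COL1A2 and PDGFRA stood at a recovered count of 0 pairs in the control and siRNA 1 libraries. These are bulk RNA values, so a smaller number of expressing cells and less RNA per cell cannot be told apart.

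Across the 10 genes, 1 was at least 1.5-fold higher than the control with siRNA 1 (NFAT5) and 2 were at least 1.5-fold lower (NFATC1 and NFATC3), on the log2(CPM + 1) scale. Over all genes, 4.43% were that much higher and 15.1% that much lower with siRNA 1. With siRNA 2 none of the 10 was 1.5-fold higher or lower, against 6.34% and 6.61% of all genes. With both siRNAs none was 1.5-fold from the control in the same direction, against 1.96% of all genes higher and 3.46% lower. For the 10 genes, the median log2 ratio was −0.07 with siRNA 1 and −0.02 with siRNA 2, beside −0.10 and 0.01 over all genes. Rescaling by median of ratios moved the all-gene median with siRNA 1 from −0.10 to 0.01, and on that scale the median of the 10 genes was 0.04. None of the 10 passed limma on 2 siTSPAN18 libraries against 1 control (smallest adjusted p of the 10, 0.992), where 0% of all genes were called. This test has 1 residual degree of freedom, which comes from the spread between the siRNA libraries. TSPAN18, the siRNA target, did not pass it either (log2 change −2.88), so not passing limma tells little about any gene here. DESeq2, run on recovered read pairs with the same single control, did call TSPAN18 (log2 change −3.51) and none of the 10 genes. Unadjusted p-values under 0.05 numbered 691 of 14185 genes in limma and 770 in edgeR, none of them among the 10, and edgeR called 0 genes while DESeq2 called 13.

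**Figure D1:**
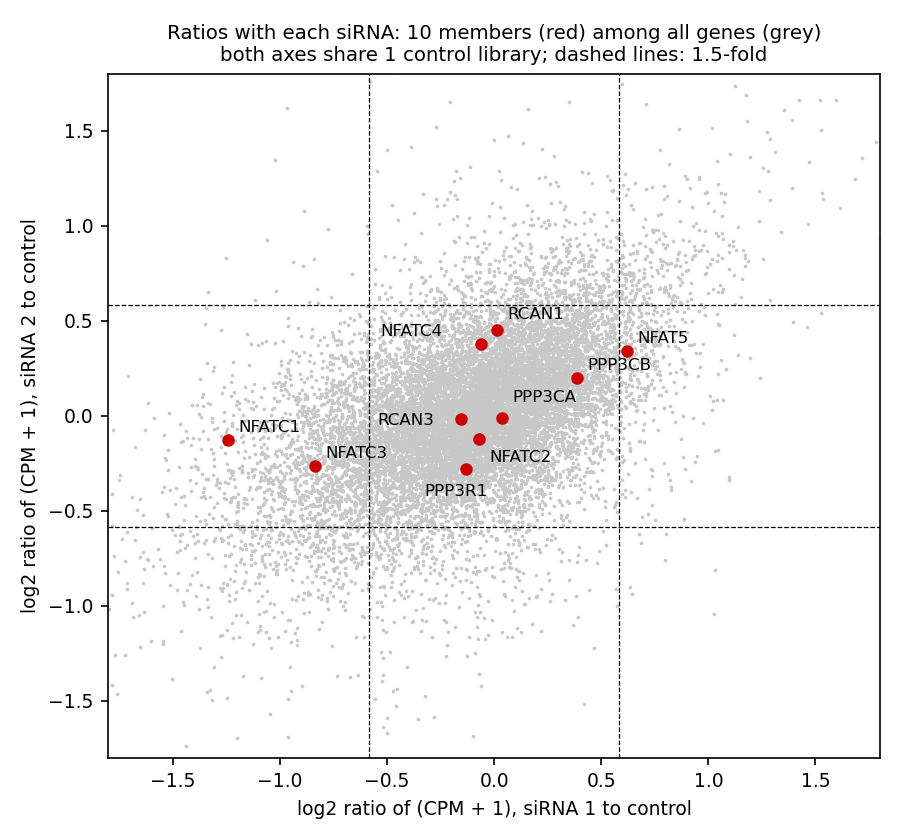
The log2 ratio of (CPM + 1) to the control with TSPAN18 siRNA 2 (vertical axis) is plotted against that with siRNA 1 (horizontal axis) for all genes kept (grey) and the 10 genes (red). Dashed lines mark 1.5-fold, 42 genes lie outside the axes, and both ratios share the control library. NFATC1 and NFATC3 lie left of the 1.5-fold line and NFAT5 right of it, and no red point lies beyond 1.5-fold on the vertical axis.

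In the control library the levels per kb of annotated exon ran from 12.2 CPM per kb for PPP3R1 down to 0.974 for NFATC4. PPP3CB (9.97), PPP3CA (9.82) and NFAT5 (8.03) followed PPP3R1, then NFATC3 (6.11), RCAN1 (6.10), NFATC2 (3.11), RCAN3 (2.80) and NFATC1 (1.36 CPM per kb). The counting intervals of PPP3CB and PPP3CA, of NFATC3 and RCAN1, and of NFATC2 and RCAN3 overlap, so their order is not resolved. The other neighbours in this order do not overlap. These lengths are unions of GENCODE exons, and a gene whose main transcript is much shorter than its union is understated.

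**Figure D2:**
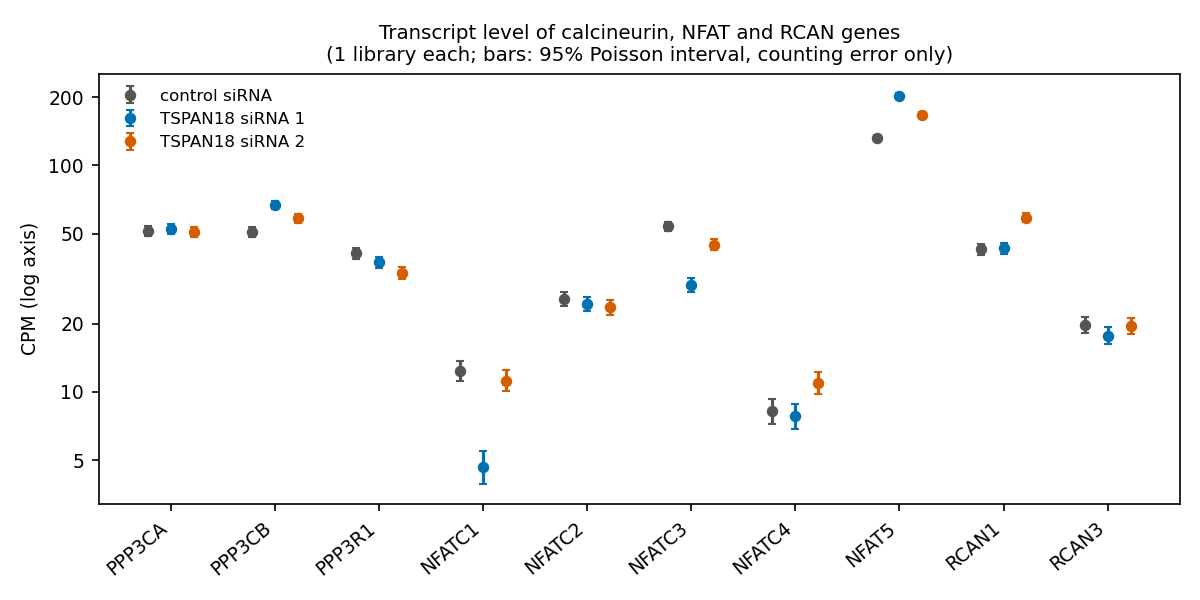
Transcript level in CPM (log axis) of each of the 10 genes in the control (grey), TSPAN18 siRNA 1 (blue) and TSPAN18 siRNA 2 (orange) libraries, 1 library each, with 95% Poisson intervals that cover counting error only. NFATC1 is 12.4, 4.65 and 11.2 CPM in the 3 libraries, and the control and siRNA 2 points of NFATC1 lie close together.

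All 3 calcineurin subunits lay within 1.5-fold of the control with each siRNA. PPP3CA (ENSG00000138814, chromosome 4), the alpha catalytic subunit, stood at 51.2, 52.5 and 50.7 CPM (control, siRNA 1, siRNA 2, as in every such series below). All 3 libraries lay within counting error of each other, at 103% of the control (95.5 to 110) with siRNA 1 and 99.1% (92.2 to 106) with siRNA 2. PPP3CB (ENSG00000107758, chromosome 10), the beta catalytic subunit, stood at 50.8, 66.8 and 58.4 CPM, higher than the control with each siRNA and highest with siRNA 1. The ratio was 131% (123 to 141) with siRNA 1 and 115% (107 to 123) with siRNA 2, both under 1.5-fold. PPP3R1 (ENSG00000221823, chromosome 2), the calcium-binding regulatory subunit, stood at 40.9, 37.3 and 33.5 CPM, below the control with each siRNA. That is 91.2% (84.0 to 98.9) and 82.0% (75.4 to 89.2) of the control. With median-of-ratios scaling the log2 ratios of PPP3R1 were −0.02 and −0.29. PPP3R1 shares 34.6% of its exonic length with AC017083.2, an annotated gene on the other strand, and the sources used here do not say whether counting used strand, so its value is uncertain.

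PPP3CC, the gamma catalytic subunit, is not one of the 10 genes and stood at 29.5, 28.5 and 28.7 CPM. Per kb of exon the catalytic genes were close to equal in the control, PPP3CA at 32.8%, PPP3CB 33.3% and PPP3CC 33.9% of their sum. PPP3CB made up 39.7% of the sum with siRNA 1 and 36.9% with siRNA 2.

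With siRNA 1 the 3 genes past 1.5-fold were all NFAT genes. NFATC1 (ENSG00000131196, chromosome 18), a calcium-regulated factor known for roles in lymphocytes and osteoclasts, stood at 12.4, 4.65 and 11.2 CPM, from 372, 139 and 334 read pairs. Only the siRNA 1 library was low: the ratio was 37.5% (30.7 to 45.7) with siRNA 1 and 90.7% (78.0 to 105) with siRNA 2, log2 ratios of −1.24 and −0.13. Of all genes, 1.79% had a lower siRNA 1 ratio than NFATC1. The siRNA 2 value of NFATC1 was 241% of its siRNA 1 value (198 to 296). Of the 10 genes only NFATC1 passed 1.5-fold in that direction, against 13.0% of all genes. None of the 10 was 1.5-fold below its siRNA 1 value in the siRNA 2 library, against 3.74% of all genes. The sign of its siRNA 2 ratio turned with the GC trend removed (0.01), while the siRNA 1 ratio was −0.92.

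NFATC3 (ENSG00000072736, chromosome 16), another calcium-regulated factor, stood at 53.8, 29.7 and 44.6 CPM, below the control with each siRNA and lowest with siRNA 1. It was 55.1% (50.7 to 59.9) of the control with siRNA 1 and 82.9% (77.1 to 89.2) with siRNA 2. It was 150% (138 to 164) as high with siRNA 2 as with siRNA 1, on the log2(CPM + 1) scale a difference of 0.57, just under the 1.5-fold rule. NFATC3 shares 36.3% of its exonic length with AC020978.5 on the other strand, so this value too is uncertain.

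NFATC2 and NFATC4 lay within 1.5-fold of the control with both siRNAs. NFATC2 (ENSG00000101096, chromosome 20), best known from T cells, stood at 25.7, 24.5 and 23.6 CPM, and both intervals held 100%. NFATC4 (ENSG00000100968, chromosome 14), a factor studied most in the heart and neurons, stood at 8.22, 7.82 and 10.95 CPM, so that it was within counting error of the control with siRNA 1 and 133% (113 to 158) with siRNA 2. The siRNA 1 ratios of both (−0.07 and −0.06) turned to 0.04 with median-of-ratios scaling.

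NFAT5 (ENSG00000102908, chromosome 16), the tonicity-responsive factor, stood at 132, 203 and 167 CPM, from 3960, 6070 and 4969 read pairs, making it the most abundant of the 10 genes by CPM. It was 154% (148 to 160) of the control with siRNA 1 and 127% (122 to 132) with siRNA 2. The log2 ratios were 0.62 and 0.34, the first past 1.5-fold, and 96.2% and 82.6% of all genes had lower ratios. With the GC trend removed the siRNA 1 ratio was 0.54, under 1.5-fold, and the siRNA 2 ratio was 0.20. NFAT5 shares 10.1% of its exonic length with AC012321.1 on the same strand.

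Among the 5 NFAT genes, per kb of exon, the summed level was 19.6, 20.1 and 20.6 CPM per kb in the control, siRNA 1 and siRNA 2 libraries. NFAT5 took 41.0%, 61.4% and 49.3% of that sum. NFATC3 took 31.2%, 16.7% and 24.6%, and NFATC1 took 6.97%, 2.54% and 6.0%. The 4 calcium-regulated NFAT genes together summed to 11.6, 7.76 and 10.4 CPM per kb. Their sum was lowest in the siRNA 1 library, where NFATC1 and NFATC3 were low and NFATC2 and NFATC4 lay within counting error of the control.

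**Figure D3:**
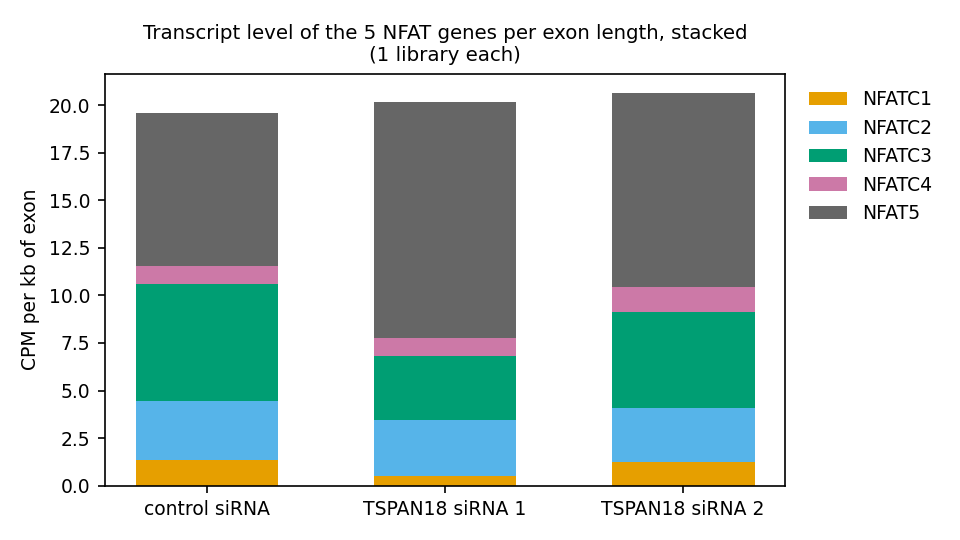
Stacked level of the 5 NFAT genes in CPM per kb of exon for each library, 1 library each, with no error bars. The stack is about equally tall in the 3 libraries (19.6, 20.1 and 20.6 CPM per kb), and the NFAT5 part is 41.0%, 61.4% and 49.3% of it.

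The RCAN genes are calcineurin regulators. RCAN1 (ENSG00000159200, chromosome 21) stood at 42.6, 43.0 and 58.8 CPM, so that it matched the control with siRNA 1 (101%, 93.3 to 109) and was higher only with siRNA 2 (138%, 128 to 148), under 1.5-fold. RCAN3 (ENSG00000117602, chromosome 1), a relative that also binds calcineurin, stood at 19.8, 17.7 and 19.6 CPM, within counting error of the control with each siRNA. RCAN3 shares 15.2% of its exonic length with AL445686.2 on the other strand. RCAN2, not one of the 10 genes, was at 1.03, 0.435 and 0.806 CPM, from 31, 13 and 24 read pairs. RCAN1 made up 66.5%, 70.2% and 73.8% of the RCAN sum per kb.

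RCAN1 is also known as a gene that calcineurin and NFAT switch on, through a start site inside the gene that gives a shorter transcript. The deposited values are per gene, so its long and short transcripts cannot be separated. The promoter windows of RefSeq (GRCh38.p14, 250 bases before to 50 after each start) were searched for GGAAA on either strand, where the other strand reads TTTCC, with the matches in capitals. Of the 10 genes, 7 had windows, 18 in all, and 11 of them held the motif, against 61.2% of all 35116 windows. At least 4 copies were held by 2.96% of all windows. The windows are shown for RCAN1, because its starts differ most in this count, and for NFATC1, because it was the lowest of the 10 with siRNA 1. The RCAN1 start shown as internal lies 88.3 kb from the first, holds 5 copies and is chr21:34526773-34527072 on the minus strand. Other RCAN1 starts downstream of the first hold fewer: 0 at 0.667 and at 1.27 kb, and 1 at 89.6 and at 90.5 kb. The first RCAN1 start holds 0 and is chr21:34615064-34615363 on the minus strand. The first NFATC1 start holds 1 and is chr18:79395680-79395979 on the plus strand. These windows differ in GC content: 48.0% for the internal RCAN1 start, 74.0% for the first RCAN1 start and 79.7% for the NFATC1 start. The RCAN1 window at 1.27 kb, with 0 copies, has 46.3%. The part of GC content in these counts was not tested. The 3 windows printed here are given 5′ to 3′ on the strand of the gene.
RCAN1 internal start: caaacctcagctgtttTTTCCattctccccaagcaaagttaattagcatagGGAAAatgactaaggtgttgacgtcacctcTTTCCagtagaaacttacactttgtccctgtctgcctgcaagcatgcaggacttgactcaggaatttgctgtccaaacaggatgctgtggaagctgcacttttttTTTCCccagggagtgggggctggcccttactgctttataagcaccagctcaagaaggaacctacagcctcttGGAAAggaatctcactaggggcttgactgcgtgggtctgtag
RCAN1 first start: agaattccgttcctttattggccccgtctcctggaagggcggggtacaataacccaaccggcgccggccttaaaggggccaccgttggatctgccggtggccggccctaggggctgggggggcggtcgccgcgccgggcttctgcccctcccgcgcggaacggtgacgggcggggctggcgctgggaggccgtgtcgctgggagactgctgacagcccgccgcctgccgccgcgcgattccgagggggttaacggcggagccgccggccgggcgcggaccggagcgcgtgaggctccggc
NFATC1 first start: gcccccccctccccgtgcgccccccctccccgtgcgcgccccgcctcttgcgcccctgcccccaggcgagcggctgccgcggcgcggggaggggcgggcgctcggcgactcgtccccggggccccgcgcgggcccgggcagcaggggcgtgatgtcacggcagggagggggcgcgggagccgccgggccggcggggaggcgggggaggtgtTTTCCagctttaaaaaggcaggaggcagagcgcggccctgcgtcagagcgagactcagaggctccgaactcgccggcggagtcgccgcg
A match is a description of letters and says nothing about binding in these cells.

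The GC content of the transcript moved with the ratios of all genes. Over 14163 genes Spearman's rho between GC content and the log2 ratio was −0.42 with siRNA 1 and −0.35 with siRNA 2, a description across genes of libraries that share the control. The median ratio with siRNA 1 was 0.17 for genes under 40% GC and −0.39 for genes of 60% GC or more. NFATC1 (60.2% GC) had the highest and NFAT5 (40.4%) the lowest GC content of the 10 genes. With the trend removed the siRNA 1 ratios were −0.92 for NFATC1, −0.79 for NFATC3 and 0.54 for NFAT5, and whether composition plays a part in them was not tested.

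**Figure D4:**
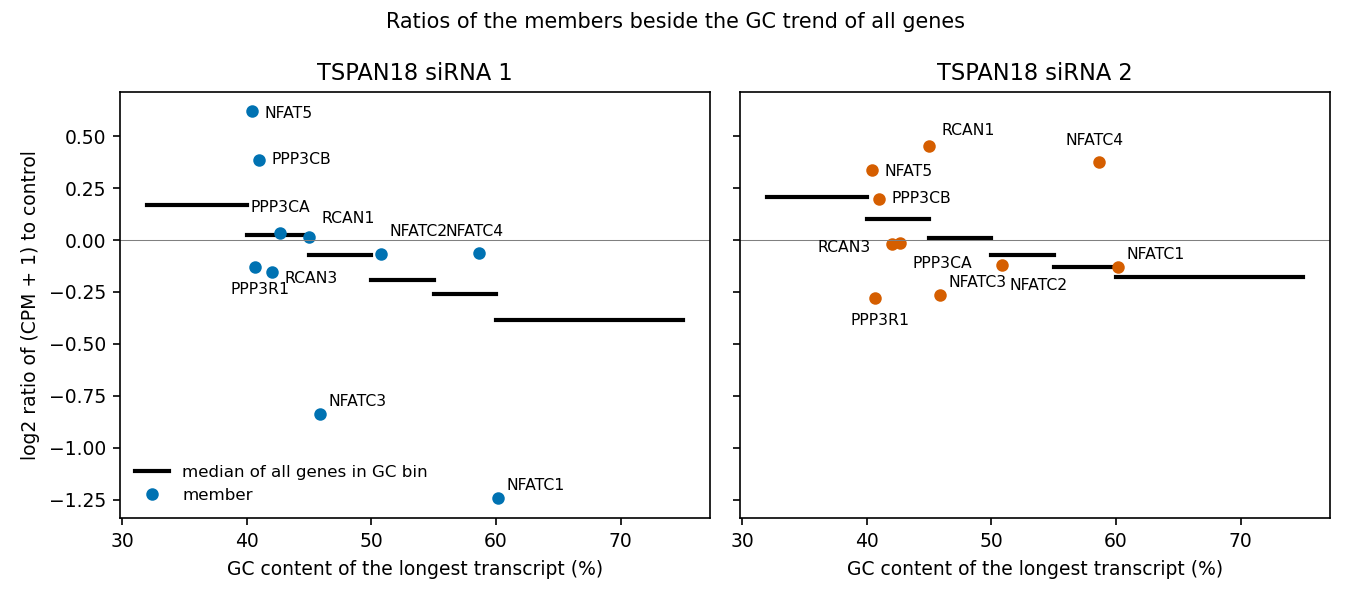
The log2 ratio of (CPM + 1) to the control of each of the 10 genes (points) against the GC content of its longest transcript, with siRNA 1 on the left and siRNA 2 on the right. Black bars mark the median of all genes in each GC bin, which falls from 0.17 to −0.39 with siRNA 1, and NFATC1 lies below its bar there.

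An siRNA can also lower genes whose 3′ untranslated region (UTR) holds a site complementary to bases 2 to 8 of an siRNA strand. Without the siRNA sequences, 7-base sequences were scored by how far the genes holding them lay below the others in 1 siRNA library relative to the other, after removing GC and UTR length trends. The best for siRNA 1 were TTCACCA and TCACCAA, held by 24.1% of 12185 genes, whose median siRNA 1 ratio was −0.14 against −0.09 for genes without them. The best for siRNA 2 were TGGGTCA and GGGTCAA, held by 14.8% of genes, with a median siRNA 2 ratio of −0.10 against 0.02. These sequences were found from the same libraries, so the medians are a description. They are medians of ratios from which neither trend was removed, and genes holding the sequences had longer UTRs. The median UTR was 3.11 against 1.06 kb for the siRNA 1 sequences and 2.97 against 1.23 kb for the siRNA 2 sequences. Genes with the siRNA 1 sequences also had a higher median siRNA 2 ratio (0.05 against −0.01), so their score reflects both libraries. Sites in the 10 genes are shown with the 7 bases in capitals, 1 for each gene and sequence, because they tell which genes hold one.
PPP3CB, siRNA 2 sequence: ctgataagatTGGGTCAtcgctgccaa
NFAT5, siRNA 1 sequence: gttatacattTTCACCAgaaatagtaa
NFAT5, siRNA 2 sequence: agacctactcTGGGTCAtttaattttg
RCAN3, siRNA 1 sequence: gctaccttcaTTCACCAgtttttatcc
NFATC1 and NFATC3, the genes lowest with siRNA 1, held no match in their annotated 3′ UTRs of 2.37 and 2.91 kb. NFAT5 holds 1 site of the siRNA 1 sequences and was above the control with siRNA 1. The part of these sites in any ratio was not tested.

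The genes around calcineurin and NFAT were taken from 10 lists of subunits, regulators, kinases, partners and targets, of which 72 of 85 genes reached a mean of 1 CPM, 62 of them not among the 10. Of these 62, 3 were at least 1.5-fold higher and 4 lower with siRNA 1, against 4.43% and 15.1% of all genes, and 3 higher and 5 lower with siRNA 2, against 6.34% and 6.61%. With both siRNAs 0 were higher and 2 lower, CSF2 and HOMER3, against 1.96% and 3.46% of all genes, so the number lower is near that of genes in general. Their medians were −0.03 and −0.10, against −0.10 and 0.01 over all genes.

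Of the targets of calcium-regulated NFAT factors, 8 were kept and their medians were 0.13 with siRNA 1 and −0.23 with siRNA 2. CSF2, which encodes the cytokine GM-CSF and is a classic NFAT and AP-1 target in T cells, stood at 15.9, 6.45 and 2.96 CPM, from 478, 193 and 88 read pairs. Both siRNA libraries were low, at 40.6% (34.1 to 48.1) and 18.6% (14.6 to 23.4) of the control, and log2 ratios of −1.18 and −2.09 were −1.04 and −2.06 with the GC trend removed. In limma the log2 change was −1.64 ± 0.418 (SE) with an adjusted p of 0.992, so it did not pass. Past 1.5-fold with 1 siRNA were F3 (higher, siRNA 1), CCND1 (lower, siRNA 2) and ENPP2 (higher, siRNA 2), named after their values were seen. With the GC trend removed ENPP2 was under 1.5-fold (0.56), while F3 (0.64) and CCND1 (−0.79) stayed past it. CXCL8, also named after its values were seen, was past 1.5-fold with siRNA 2 only when the trend was removed (−0.61).

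Of the proteins that hold NFAT in the cytoplasm or compete for it, 4 were kept, and LRRK2 passed 1.5-fold with siRNA 2 (4.26, 3.14 and 7.22 CPM, named after its values were seen). With the GC trend removed the siRNA 2 ratio of LRRK2 was 0.46, under 1.5-fold. HOMER3, a scaffold that competes with calcineurin for NFAT, stood at 27.9, 15.3 and 14.3 CPM, low in both siRNA libraries at 55% (49.0 to 61.7) and 51.3% (45.5 to 57.7). Its siRNA 1 ratio was −0.82 and fell short of 1.5-fold with the GC trend removed (−0.49), and 21.2% of its exonic length is shared with AC002985.1. Its adjusted p in limma was 0.992.

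The 14 NFAT kinases had medians of −0.15 and 0.03 and none passed 1.5-fold with either siRNA. GSK3A, which phosphorylates NFAT for export from the nucleus, was the lowest at 95.6, 66.0 and 69.1 CPM, and MAPK14, the p38 alpha kinase, was at 82.7, 109 and 113 CPM (both chosen after their values were seen). The 7 calcineurin inhibitors, anchors and immunophilins, which include RCAN1 and RCAN3, had medians of 0.01 and −0.02, with none past 1.5-fold. These medians are the siRNA 1 ratio of RCAN1 and the siRNA 2 ratio of RCAN3. The 9 NFAT partners had medians of −0.05 and −0.10, and its AP-1 members differed in direction. JUNB was at 77.4, 41.7 and 62.8 CPM and FOSL1 at 593, 399 and 366 CPM, both below the control with each siRNA, while JUN was above it with each at 104, 136 and 121 CPM. JUNB was at least 1.5-fold lower with siRNA 1, and FOSL1 with siRNA 2. With the GC trend removed these ratios were −0.44 and −0.55, under 1.5-fold. The siRNA 1 ratio of JUN (0.65) and the siRNA 2 ratio of JUND (0.66) were past 1.5-fold with the trend removed. JUND was at 71.0, 68.4 and 92.1 CPM and FOSL2 at 333, 397 and 258 CPM (all 5 chosen after their values were seen). The 7 other calcineurin substrates had medians of −0.34 and −0.11, where CRTC3, a CREB coactivator, was at 66.2, 43.5 and 44.3 CPM and was also named after its values were seen. CRTC3 was at least 1.5-fold lower with siRNA 1, but not with the GC trend removed (−0.38).

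The 11 tonicity targets of NFAT5 had medians of 0.24 with siRNA 1 and −0.10 with siRNA 2. The genes past 1.5-fold were SLC5A3 (58.8, 95.6 and 40.3 CPM) and SLC38A2 (496, 776 and 519 CPM), both higher with siRNA 1, and HSPA1A (higher) and SLC6A12 (lower) with siRNA 2, all named after their values were seen. With the GC trend removed the siRNA 1 ratios of SLC5A3 (0.54) and SLC38A2 (0.49) were under 1.5-fold. The siRNA 2 ratios of HSPA1A (0.92) and SLC6A12 (−0.80) stayed past it. Other ratios passed 1.5-fold only with the trend removed: SLC5A3 with siRNA 2 (−0.72), and HSPA1A (0.86) and SLC6A6 (0.67) with siRNA 1. SLC6A6 was also named after its values were seen. HSPA1A is nearly identical to HSPA1B and is uncertain. NFAT5 itself was above the control with both siRNAs while SLC5A3, a myo-inositol carrier, was above it with siRNA 1 and below it with siRNA 2, and the list was described, not tested, against NFAT5. The signs of the medians for calcineurin subunits, NFAT factors, kinases, partners and substrates change with the scaling or with the GC trend removed in at least 1 siRNA, so no direction is given for them.

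**Figure D5:**
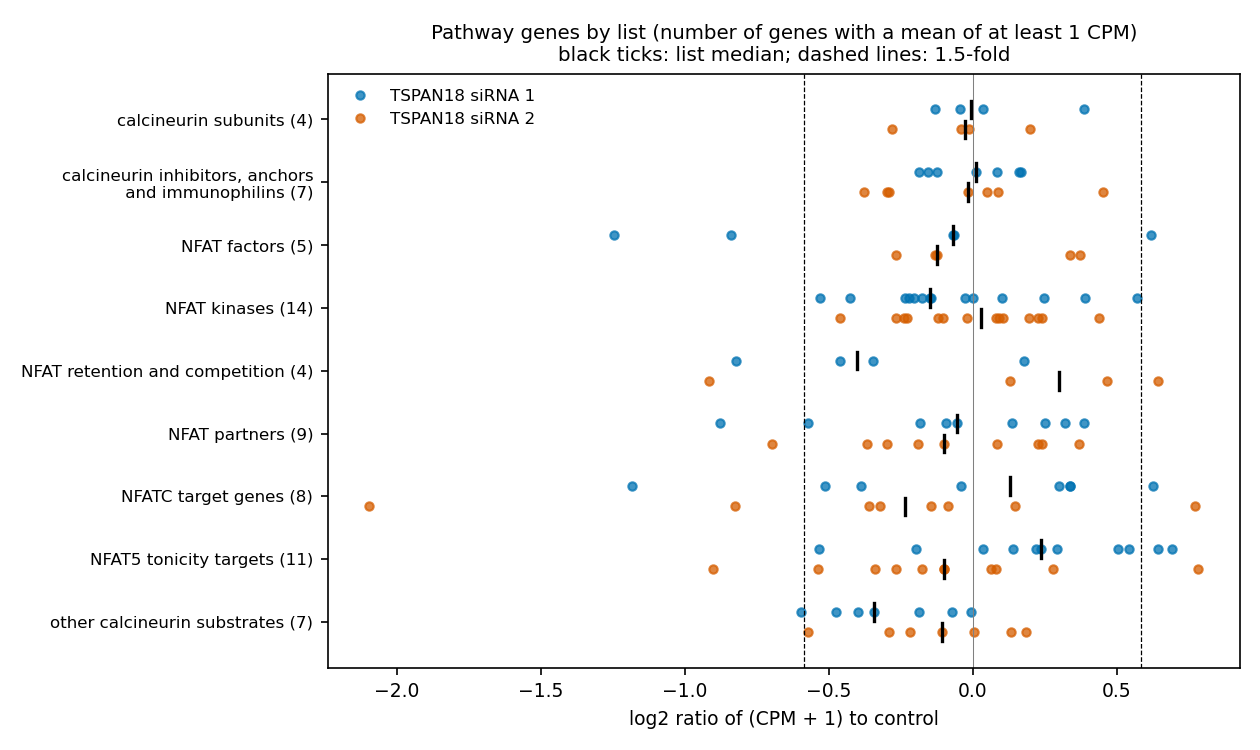
The log2 ratio of (CPM + 1) to the control of each gene in 9 of the lists around calcineurin and NFAT, for siRNA 1 (blue) and siRNA 2 (orange), with black ticks at the list medians and dashed lines at 1.5-fold. CSF2, at −1.18 and −2.09, is the lowest point of its list with each siRNA.

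The genes whose 2 ratios were nearest to those of NFAT5, among 9557 genes averaging 10 CPM or more, were KDM3A, a histone demethylase (50.04, 77.1 and 64.1 CPM, distance 0.0123), SART3 (105, 163 and 132 CPM, distance 0.0175) and HSP90AA1, a chaperone (1354, 2065 and 1730 CPM, distance 0.0180). With 3 libraries and a shared control this likeness is a position on 2 ratios only.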

How the data were processed

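RNA sequencing of 3 DU145 libraries was analysed (1 control siRNA, 2 siTSPAN18, grouped by the labels). The submitters' processing notes name HTSeq 0.6.1, HISAT2 2.1.0, bcl2fastq 2.19.1 and the build hg19, without roles. The sources used here do not state the annotation release or strand setting. The deposited values are CPM, as shown by their sums and by whole reads: 100% of values were whole numbers of reads within 0.001 read. All were even except genes at 1 read, which were taken as 0 pairs, and pairs were taken as reads divided by 2. One pair is worth 0.0333, 0.0334 and 0.0336 CPM, and the limit that 0 pairs allows (3 pairs) is 0.0998, 0.100 and 0.101 CPM.

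Ratios are log2((CPM + 1)/(CPM + 1)), which understates low genes. Counts of genes use a rule of 1.5-fold with no test. The test across all genes was limma 3.58.1 in R 4.3.3 on log2(CPM + 1), with Benjamini-Hochberg adjustment at 0.05 and 1 residual degree of freedom; the single control is taken to vary as the siRNA libraries do. Recovered pairs were also tested with edgeR 4.0.16 and DESeq2 1.42.0. Ratio intervals are exact (Clopper-Pearson) and level intervals Poisson, both at 95% and for counting error only. GENCODE release 29 (GRCh38) gave exon lengths, overlaps, GC content and 3′ UTRs, RefSeq gave promoter windows, and the GC trend was removed with a lowess curve (fraction 0.3). Scripts ran in Python 3.11.15 and were tested on simulated data. The 10 genes, the gene lists and the 1.5-fold rule were chosen with earlier results of these data known. Genes named are the 10, list genes 1.5-fold from the control with both siRNAs or 2-fold with 1, TSPAN18, STIM1, TRIM32 and the 3 genes nearest to the member with the largest smaller ratio; others are marked. Some items are not reported here.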

Additional observations from a re-analysis of the deposited data

How the results depend on the processing

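No paired analysis was possible because the control label carries no replicate number and there is 1 control. Leaving out a siTSPAN18 library leaves the ratio of the other siRNA alone, with no residual degrees of freedom and so no test. Of 80 ratios of the 10 genes under alternatives, 69 moved by no more than the half-width of their counting interval and 11 by more. The sign turned in 5 of the 80, all for ratios under 1.5-fold: NFATC2 and NFATC4 with siRNA 1 under both median-of-ratios scaling and GC removal, and NFATC1 with siRNA 2 under GC removal. No ratio past 1.5-fold changed sign.

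With a pseudocount of 5 CPM, the genes 1.5-fold higher and lower numbered 401 and 1129 with siRNA 1 (629 and 2141 as reported), 476 and 495 with siRNA 2 (900 and 938) and 162 and 186 with both (278 and 491). A 2-fold rule gave 96 and 597, 156 and 164, and 37 and 60, left 1 pathway gene lower with both siRNAs (2 as reported), and left 0 of the 10 genes higher and 1 lower with siRNA 1 (1 and 2 as reported). Median-of-ratios scaling gave 1032 genes higher with siRNA 1, 1 pathway gene higher with both (HSPA1A, 0 as reported), a median of the 10 genes of 0.040 with siRNA 1 (−0.07 as reported) and 1 gene passing limma (TSPAN18, 0 as reported). With the GC trend removed, 1277 genes were lower with siRNA 1 and 283 with both, 1 pathway gene was higher and 1 lower with both, 0 of the 10 genes were higher with siRNA 1, and their median was 0.034. A filter at 5 CPM left 312 lower with both. DESeq2 called 13 genes. The limits are depth for NFATC1 and NFATC4, which hold 139 to 372 read pairs a library, and the single library of each condition. The pathway alternatives were chosen after seeing the data.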
